A study of Mus musculus with 26 samples.

Results

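Untreated Kin- cells were compared with untreated wild-type (WT) cells of the S49 mouse T-lymphoma line, using the arrays titled 0h in each line. These are 8 of the 26 arrays of the series, 4 from WT cells (numbered 1, 13, 16 and 36) and 4 from Kin- cells (numbered 5, 14, 40 and 44). Each array reports 22626 probe sets, short groups of oligonucleotides that each detect 1 transcript or a few related ones, and 12393 named genes could be followed through 1 probe set each, the brightest of that gene. The other 18 arrays held both lines after 2, 6 or 24 h with the cAMP analog 8-CPT-cAMP at 100 uM, 3 arrays per line and time, and they enter here to estimate the spread, in the mean level that sets dim genes apart, and as side-by-side values. Neither untreated group received the analog, and the labels name no other treatment, genotype or clone. They leave unsaid whether each array of a line had its own culture, and the p-values therefore cover only the array-to-array spread, which may be technical.

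S49 is a thymic lymphoma that grows in suspension and is a classical system for cAMP genetics. When cAMP rises, it binds the regulatory subunits of protein kinase A (PKA), the catalytic subunits are released, and they phosphorylate cytoplasmic targets and nuclear factors such as CREB; wild-type S49 cells then arrest in G1 and die. Kin- cells were isolated as survivors of cAMP treatment and lack PKA catalytic activity, so that a comparison of untreated arrays asks how the transcriptomes of the 2 lines differ without added cAMP. Other differences between the lines and the loss of PKA cannot be told apart in this design.

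Levels are given as the square root of the deposited value, called units here, because no source used here gives the scale of the deposited values, and their square root spans the range of a log2 intensity (0.612 to 16.4, median 5.47). If that reading holds, a difference of 1 unit is a doubling. Levels are compared within a gene only. The median level of the 8 arrays lay between 5.40 and 5.52. Arrays were split into 2 sets, numbered 1 to 14 and 16 to 47, from their numbers and from differences between arrays. The labels name no batch. Each set held 2 untreated arrays of each line. Because differences between arrays helped choose the split, those given next describe the sets and do not test them. Root-mean-square differences between untreated arrays of the same line were 0.2 to 0.298 within a set and 0.291 to 0.359 across sets, against 0.335 to 0.465 between the lines. The 13 measured T-lineage markers included 12 at or above the median in both lines, and Cd5 lay below it in both. Markers of B, myeloid, NK, erythroid, stromal, epithelial and mast cells lay below the median in both lines, except Igll1 and Csf1r, and none of them passed. Their summed levels overlapped between the lines. The sum of the 4 epithelial markers was 13.9 to 14.1 in WT and 13.9 to 16.5 in Kin-, where Krt18 read 6.08 on Kin- array 14 and 3.65 to 4.02 on the other Kin- arrays.

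Across all probe sets, 680 (3.01%) passed the limma test at an adjusted p of 0.05, 358 (1.58%) higher and 322 (1.42%) lower in Kin-, and 180 (0.796%) of the 22626 both passed and differed by at least 1 unit. Counted as genes, 431 passed (3.48%), of which 216 (1.74%) were higher and 215 (1.73%) lower. The 4 Kin- arrays lay wholly above or below the 4 WT arrays for 998 genes (8.05%), 479 above (3.87%) and 519 below (4.19%). The median difference over all genes was -0.01. A term for the array set raised the count to 1354 probe sets, and leaving out Kin- array 40 lowered it to 450. Among probe sets that passed in arrays 16 to 47 alone, 1137 of 1249 (91.0%) had the same sign in arrays 1 to 14 alone, where 48.5% of all probe sets did.

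No PKA subunit gene passed as changed, and 1 gene of a PKA inhibitor did. The labels name no deleted gene, so the transcript levels of the kinase do not check which line an array held. Of 9 measured subunit and inhibitor genes, 0 were higher and 1 was lower. At an unadjusted p of 0.05 the same test called 4 of these 9 genes and 11.5% of all probe sets. Prkaca, the main catalytic subunit, read 8.82, 8.81, 8.94 and 8.75 in WT arrays 1, 13, 16 and 36, and 8.59, 8.52, 8.82 and 8.55 in Kin- arrays 5, 14, 40 and 44. The 2 lines overlapped, and the difference of -0.21 (SE 0.10) did not pass (adjusted p = 0.395). The second catalytic gene, Prkacb, differed by -0.03 (SE 0.16, adjusted p = 0.999). Prkar1a, the type I regulatory subunit that holds the catalytic subunit inactive, read 10.88 to 10.97 in WT and 10.56 to 10.78 in Kin-. All 4 Kin- arrays lay below all 4 WT arrays, but the difference of -0.22 (SE 0.10) did not pass (adjusted p = 0.336). Prkar2a, the type II regulatory subunit, differed by 0.71 (SE 0.23, adjusted p = 0.113), with overlapping arrays, and passed when Kin- array 5 was left out (0.86). Prkar1b, Pkia, Pkib and Prkx differed by 0.00 to 0.17 and did not pass.

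The PKA-list gene that fell was Pkig, a protein inhibitor that binds the free catalytic subunit. It read 9.91, 9.86, 9.18 and 9.51 in WT and 8.13, 8.49, 8.52 and 8.63 in Kin-, and fell by 1.18 (SE 0.24, adjusted p = 0.00719) with no overlap. Of all genes 1.73% fell, and of those at or above the median level 3.06%. A further list held adenylyl cyclases, G protein subunits (Gs and Gi), prostaglandin receptors, EPAC and Popdc2. Of its 16 measured genes, 2 fell and 0 rose. They were Adcy6, by 0.43 (SE 0.08, adjusted p = 0.00391), and Adcy7, by 0.54 (SE 0.09, adjusted p = 0.00124), both enzymes that make cAMP. Gnas, which encodes the stimulatory G protein subunit that activates them, differed by 0.18 (SE 0.08, adjusted p = 0.373). None of 10 AKAP genes, whose products anchor PKA, passed in the limma test, nor did any of 14 phosphodiesterase genes, whose products degrade cAMP, or of 12 RGS genes. At an unadjusted p of 0.05 these counts were 2, 0 and 1, where 11.5% of all probe sets were called. Akap12 passed without Kin- array 5 (1.33). Of 33 CREB-family and immediate-early genes, 1 was higher and 1 lower, with a median difference of -0.03. Btg1, an antiproliferative gene, fell by 0.75 (SE 0.12, adjusted p = 0.000838), and Ier5 rose by 0.35 (SE 0.08, adjusted p = 0.0185). The Ier5 call was lost without any 1 of 4 of the arrays (WT 1, 13 or 36, or Kin- 14; 0.28 to 0.40 over all 8 omissions). The immediate-early and CREB-target genes Crem, Fos, Nr4a1, Rgs2 and Dusp1 had no basal call: Crem differed by 0.02 (SE 0.34), Fos by -0.30 (SE 0.36), Nr4a1 by -0.95 (SE 0.33, adjusted p = 0.166; passed without WT array 16 at -1.29), Rgs2 by -1.07 (SE 0.45, adjusted p = 0.304) and Dusp1 by -0.57 (SE 0.42), each with overlapping arrays.

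The genes that were higher in Kin- lay mostly on chromosome 6. Chromosomes were taken from the RefSeq gene table of GRCm38.p6, which named one for 12367 of the 12393 genes, and genes with a mean level below 5.47 over the 26 arrays were set apart because most of them sit near the bottom of the range. Of 330 chromosome 6 genes at or above that level, 133 (40.3%) were higher in Kin- and 4 were lower, where each direction took 3.06% of all 6708 genes at that level. The same counts over 6378 genes on the other 19 chromosomes were 72 higher (1.13%) and 201 lower (3.15%). Chromosome 6 held 4.92% of the genes at that level and 64.9% of the higher ones, and over all levels it held 135 of the 216 higher genes. The remaining 81 higher genes were 0.696% of the genes elsewhere, and 210 genes elsewhere were lower (1.8%). Omitting Kin- array 40 gave 94 higher genes on chromosome 6 and 40 elsewhere, the lowest counts over the 8 omissions, and omitting Kin- array 5 gave 137 and 98.

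**Figure D1:**
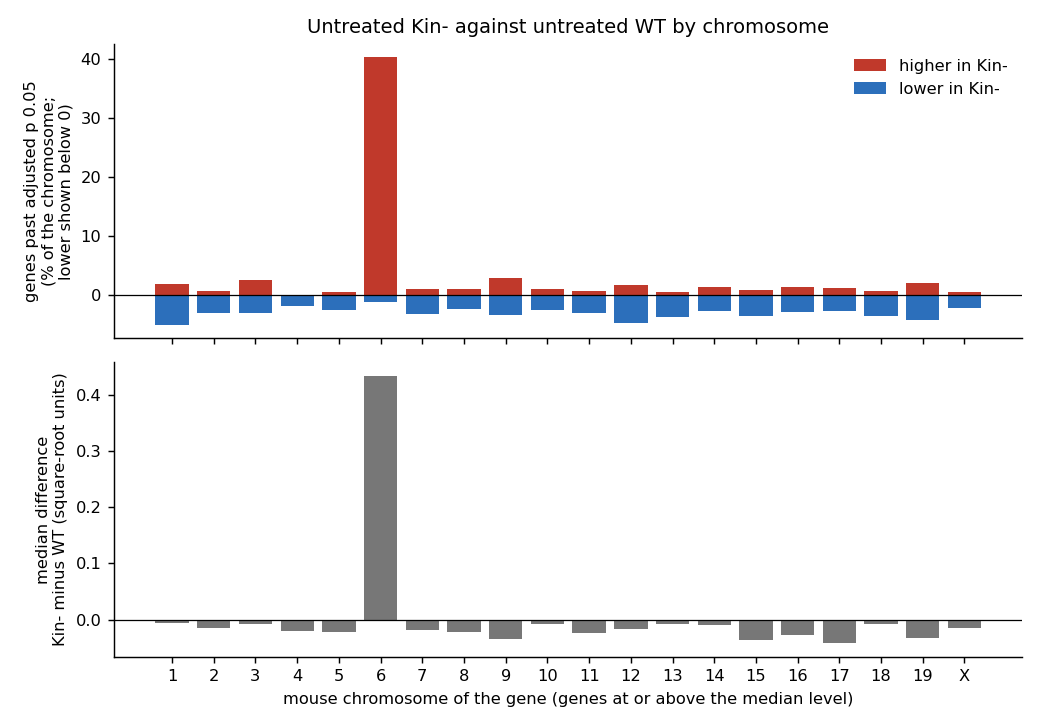
Untreated Kin- against untreated WT by chromosome, for genes at or above the median level. The upper panel shows the percent of each chromosome's genes that passed as higher (red) or lower (blue, drawn below 0), the lower panel the median difference in square-root units; chromosome 6 stands at 40.3% higher and 0.43 units, and no other chromosome exceeds 2.93% higher or a median of -0.01.

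The shift was a moderate one, shared by most of the brighter genes of the chromosome and not seen in the median of the dimmer ones. The median difference of the 330 genes at or above the median level was 0.43 units, with quartiles at 0.24 and 0.61, and 90% of them were positive. That is 1.35-fold if 1 unit is a doubling. Medians of the other chromosomes lay between -0.04 and -0.01, and 37.8% to 49.4% of their genes were positive. The 395 dimmer chromosome 6 genes had a median of -0.01, and over all 725 genes of the chromosome 62.3% were positive. The chromosome 6 genes that passed as higher had a median difference of 0.59, those elsewhere 0.75, and of 42 higher genes with a difference of at least 1 unit only 10 were on chromosome 6. DNA copy number was not measured in these arrays.

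The difference ran along the whole chromosome. With the 330 genes divided into 10 blocks of 33 in chromosomal order, the median lay between 0.37 and 0.52 in every block, 26 to 32 of the 33 genes were positive, and 8 to 18 passed as higher. The lowest median, 0.37, was in block 6, from Gkn2 to Uba3, and the highest, 0.52, in the last, from Ptpro to Resf1. The last block also held 3 of the 4 lower genes. These were Eps8, Ptpro and St8sia1, and the other was Eif2ak3. A search of 5-gene windows outside chromosome 6 for at least 3 passed genes of 1 direction found 2 overlapping windows, both on chromosome 19. They held Pdcd4 (-0.73), Bbip1 (-0.80) and Gpam (-1.01), which lie around Shoc2 in gene order. Bbip1 did not pass without WT array 1, 13 or 16 or Kin- array 44, nor Gpam without WT array 13 or Kin- array 14, with differences of -0.90 to -0.64 and -1.08 to -0.93 over the 8 omissions.

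**Figure D2:**
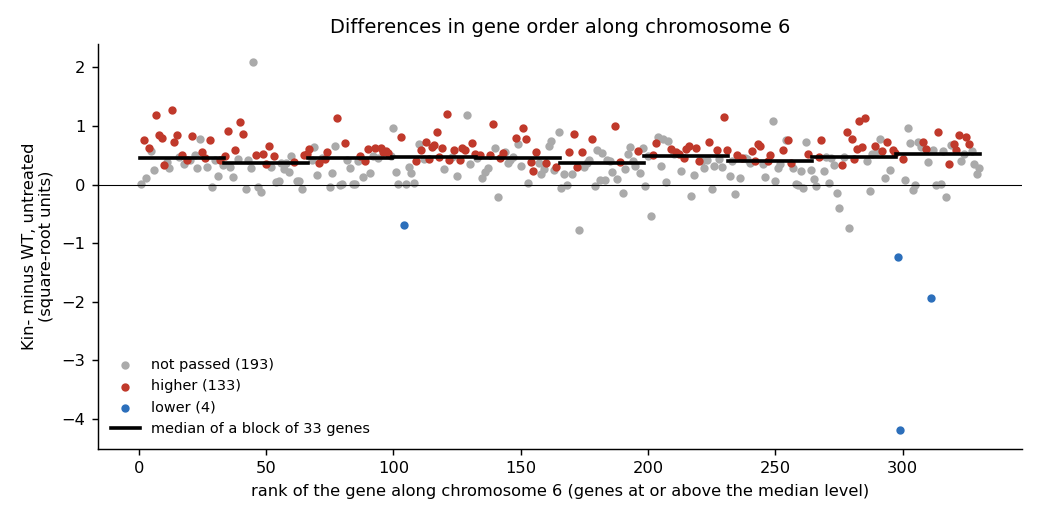
Difference between untreated Kin- and untreated WT in square-root units for 330 chromosome 6 genes, in gene order from the start of the chromosome. Red points passed as higher (133), blue as lower (4) and grey did not pass; black bars are the medians of blocks of 33 genes, which stay between 0.37 and 0.52 along the chromosome.

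Each Kin- array carried the shift, but not to the same size. As a measure within 1 array, the median level of the chromosome 6 genes minus that of the other genes was -0.20 to -0.13 in all 13 WT arrays of the series. It was 0.247 to 0.299 in 9 Kin- arrays (14 and 40 to 47) and 0.0898 to 0.109 in the remaining 4 (5 to 8), so that no Kin- array overlapped a WT array. Arrays 5 to 8 are 1 array per time point. Against the untreated WT arrays of its own set, Kin- array 5 had a chromosome 6 median of 0.32 with 83.6% of genes positive, array 14 had 0.48 with 87%, array 40 had 0.46 with 92.1% and array 44 had 0.44 with 89.4%. Other chromosomes had -0.04 to -0.01 in the same 4 comparisons. Array 5 was below array 14, its partner in the set, in every block.

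**Figure D3:**
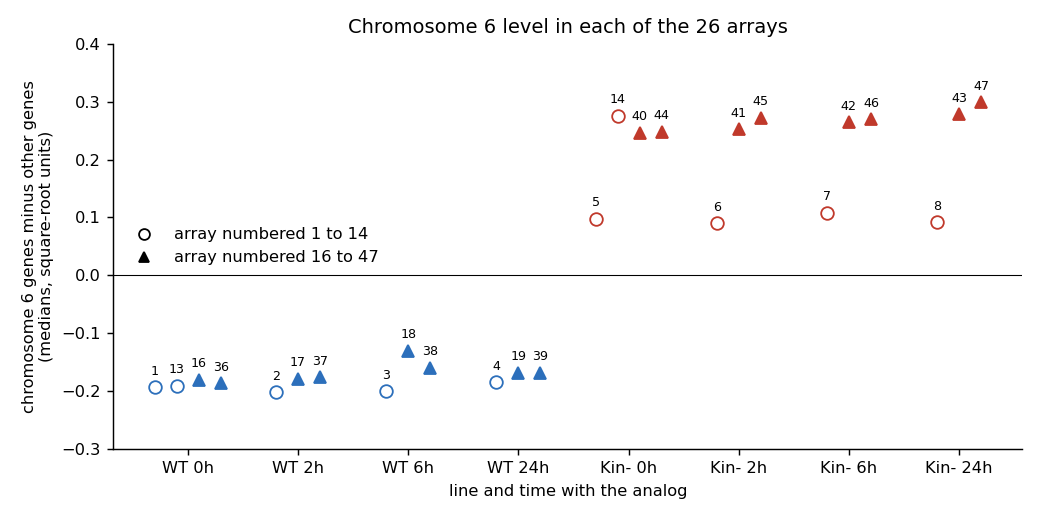
Median level of chromosome 6 genes minus that of other genes in each of the 26 arrays, in square-root units, by line and time with the analog; circles are arrays numbered 1 to 14, triangles arrays numbered 16 to 47. WT arrays (blue) lie between -0.20 and -0.13, Kin- arrays 5 to 8 between 0.0898 and 0.109, and the other Kin- arrays between 0.247 and 0.299.

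The treated arrays, which do not enter the 2 basal means but do enter the spread and the choice of brighter genes, showed the shift too. At 2, 6 and 24 h with the analog, the chromosome 6 median of Kin- minus WT at the same time was 0.47, 0.37 and 0.35, and that of the other chromosomes was 0.00, -0.02 and -0.00. The WT cells respond to the analog, so many genes differ at these times: 17.4%, 21.2% and 29.2% of all genes at or above the median level were higher in Kin-. On chromosome 6 it was 46.7%, 45.8% and 46.7%, and on the other chromosomes 15.9%, 19.9% and 28.3%. Lower calls on chromosome 6 went from 1.21% untreated to 7.58%, 8.79% and 15.8%, and 77.3%, 75.2% and 69.4% of its genes were positive, against 90% untreated.

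The chromosome 6 genes that passed as higher with the largest differences had varied roles. Akr1b8, an aldo-keto reductase, had a larger difference, 2.08 (SE 1.02), that did not pass (adjusted p = 0.454). Tmem168, a membrane protein, rose by 1.28 (SE 0.28), Retsat, which saturates retinol, by 1.21 (SE 0.25), and Asns, asparagine synthetase, by 1.19 (SE 0.19). Igf2bp3, an mRNA-binding protein of proliferating and fetal cells, read 7.99, 8.14, 7.77 and 7.86 in WT and 8.81, 9.51, 8.89 and 9.09 in Kin-, with no overlap and a rise of 1.13 (SE 0.15, adjusted p = 9.55e-05). Csgalnact2 and Smim10l1 rose by 1.15 and 1.13, calls that were each lost in 5 of the 8 omissions (WT 1 or 13, Kin- 14, 40 or 44; 0.93 to 1.29 and 1.02 to 1.30), and Tmem168 lost its call without Kin- array 40 (1.12). Itfg2 rose by 1.08 and Copg2, a subunit of the COPI vesicle coat, by 1.07. Over all genes, 135 of the 216 higher and 5 of the 215 lower ones lie on chromosome 6. Among listed genes, 0 of the 36 that were lower lie there, and 14 of the 22 that were higher do. They include Bid, which links death receptors to mitochondria (0.66), Casp2, an initiator caspase (0.52), Cul1, the scaffold of SCF ubiquitin ligases (0.60), Fkbp4, a chaperone of the glucocorticoid receptor (0.64), and Il17ra, a cytokine receptor (0.58). The Casp2 call was lost without WT array 1 or Kin- array 40 or 44 (0.47 to 0.61 over the 8 omissions).

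Metabolic and ribosomal lists held further higher genes of chromosome 6. Ldhb, which interconverts lactate and pyruvate, rose by 0.61 (SE 0.12). It was the sole gene to pass of the 20 listed under glycolysis. The complex I genes Ndufa9 and Ndufa5 rose by 0.33 and 0.43, and the ribosome biogenesis genes Polr1a, the largest subunit of RNA polymerase I, and Bms1 by 0.89 and 0.58. Rpa3, a subunit of the single-strand DNA binding complex, rose by 0.33. All 6 are chromosome 6 genes, and the other members of these 4 lists had no higher call. Single omissions ended the calls of Ndufa5 (WT 1, 16 or 36, Kin- 5, 14 or 40; 0.37 to 0.48 over the 8 omissions), Polr1a (WT 1 or 36, Kin- 14 or 40; 0.83 to 0.96) and Rpa3 (WT 1 or 16; 0.28 to 0.37). Hk2, a hexokinase on chromosome 6, passed without Kin- array 5 (1.47) and with the array-set term.

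The largest fall in Kin- was that of Hes1, a repressor that is a direct target of Notch signalling in thymocytes. Hes1 read 7.73, 7.57, 7.25 and 7.99 in WT arrays 1, 13, 16 and 36, and 3.00, 2.80, 2.83 and 2.30 in Kin- arrays 5, 14, 40 and 44. The Kin- values lie far below the median of all probe sets, the lines did not overlap, and Hes1 fell by 4.90 (SE 0.16, adjusted p = 4.36e-14). In the 9 treated Kin- arrays it read 2.73 to 3.58. Hes1 was the only one of 21 measured Notch pathway genes that passed. The receptors Notch1 and Notch3 differed by -0.03 (SE 0.17) and -0.18 (SE 0.23), and Dtx1, another Notch target, by 0.59 (SE 0.21, adjusted p = 0.179), which passed with the array-set term. The median of the pathway was -0.00.

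Ccr9, the chemokine receptor that guides thymocytes and gut-homing T cells, was the next largest fall. It read 11.32, 12.31, 10.39 and 10.69 in WT and 6.94, 7.13, 6.18 and 5.83 in Kin-, with no overlap and it fell by 4.66 (SE 0.43, adjusted p = 1.27e-06). Eps8, an actin regulator and receptor tyrosine kinase substrate, lies on chromosome 6 and went against its neighbours. It read 7.68, 7.54, 7.37 and 7.68 in WT and 2.86, 4.53, 3.22 and 2.89 in Kin-, and fell by 4.19 (SE 0.30, adjusted p = 2.17e-08). St8sia1, which synthesises gangliosides, fell by 1.94 (SE 0.16), Ptpro, a receptor tyrosine phosphatase, by 1.23 (SE 0.22), and Eif2ak3, the PERK kinase, by 0.69 (SE 0.15), all on chromosome 6. Cacna1c, an L-type calcium channel subunit on the same chromosome, lay below the median level over the 26 arrays. It read 5.98 to 6.48 in WT and 3.30 to 3.98 in Kin-, and fell by 2.60 (SE 0.22, adjusted p = 3.23e-07).

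**Figure D4:**
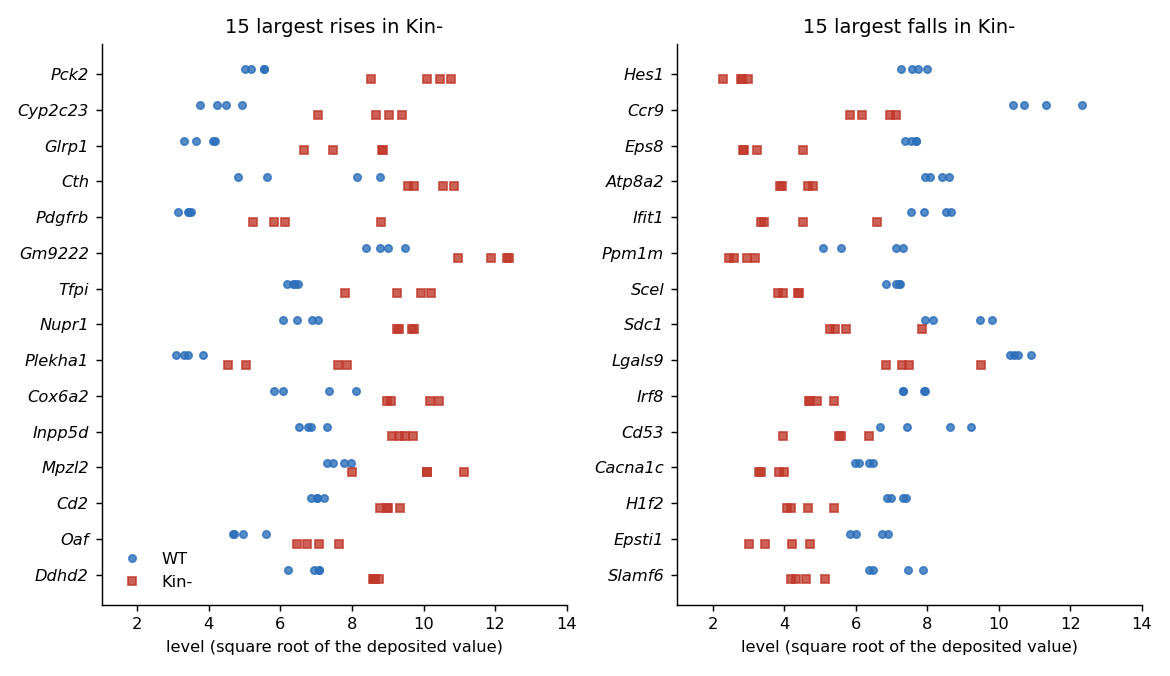
Levels, as the square root of the deposited value, in the 4 untreated WT arrays (blue) and 4 untreated Kin- arrays (red) of the 15 genes with the largest rises (left) and the 15 with the largest falls (right) among genes whose arrays did not overlap. Hes1 lies between 7.25 and 7.99 in WT and between 2.30 and 3.00 in Kin-, and Pck2 between 5.02 and 5.54 in WT and 8.52 and 10.78 in Kin-.

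Further large falls came from genes with other roles. Atp8a2, a phospholipid flippase, fell by 3.93 (SE 0.44), Ppm1m, a protein phosphatase, by 3.47 (SE 0.49), Scel by 2.95 (SE 0.20), Sdc1, the heparan sulfate proteoglycan syndecan-1, by 2.77 (SE 0.60), Cd53, a leukocyte tetraspanin, by 2.64 (SE 0.54), and H1f2, a linker histone, by 2.55 (SE 0.43). The arrays of the lines did not overlap for any of them, as the choice of these genes required. Sdc1 did not pass without Kin- array 40 (-2.50). Ppm1m read 2.46 to 3.19 in Kin-, in the range of NK and erythroid markers in the same arrays (2.22 to 2.61 and 2.46 to 3.50 as means). Detection calls were not used here, so for genes whose lower line lies there, Hes1 and Eps8 among them, the size of the fall may be understated.

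The interferon response list had 4 of 34 measured members lower and 0 higher, where 1.73% of all genes were lower, with a median of -0.15 beside -0.01 over all genes. Of the 34, 19 had a WT mean at or above the median level, and 3.06% of genes at that level were lower. Over the 8 omissions 2 to 3 members were lower. Ifit1, an antiviral protein that binds foreign RNA caps, read 8.66, 7.54, 7.90 and 8.53 in WT and 4.51, 6.60, 3.35 and 3.44 in Kin-. The lines did not overlap, Kin- array 14 stood above the other Kin- arrays, and the level fell by 3.68 (SE 0.54, adjusted p = 0.00032). Irf8, a transcription factor of interferon-responsive and myeloid genes, read 7.32, 7.33, 7.94 and 7.91 in WT and 4.92, 4.72, 5.39 and 4.70 in Kin-, and fell by 2.69 (SE 0.37, adjusted p = 0.000163). Oasl1, an oligoadenylate synthetase-like protein, fell by 0.78 (SE 0.20) and Trim21, a cytosolic antibody receptor, by 0.67 (SE 0.18). These 2 calls were lost in 6 and 7 of the 8 omissions (-0.87 to -0.72 and -0.73 to -0.60), so that the Oasl1 call was kept only without WT array 16 or Kin- array 14 and the Trim21 call only without Kin- array 5. Outside the list, Lgals9, the interferon-inducible lectin galectin-9, read 10.42, 10.31, 10.89 and 10.52 in WT and 9.50, 6.84, 7.48 and 7.30 in Kin-, and fell by 2.76 (SE 0.51, adjusted p = 0.00272). Kin- array 5 stood nearest to WT. Epsti1, another interferon-inducible gene, fell by 2.52 (SE 0.35, adjusted p = 0.00016). Aim2, a sensor of cytosolic DNA, fell by 1.48 (SE 0.37, adjusted p = 0.0299) and kept that call only when WT array 16 or 36 was the one omitted (-1.83 to -1.14 over the 8). It belongs to the separate Ifi200 list, where the other 4 of 5 measured genes did not pass and the median was 0.0022.

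Promoter sequences are shown for 2 of the genes that fell and carry the interferon-stimulated response element, searched as GAAA, any 2 bases and GAAA again, on both strands (TTTC, 2 bases, TTTC on the other), in the 250 bases before each RefSeq transcript start. Each window has 60 bases, 5′ to 3′ on the gene's strand in GRCm38.p6, and capitals mark the matches. The Ifit1 window is chr19:34640769-34640828 on the + strand, with matches 104 and 85 bases before the start, and the Lgals9 window is chr11:78984945-78985004 on the - strand, with a match 55 bases before it.
Ifit1: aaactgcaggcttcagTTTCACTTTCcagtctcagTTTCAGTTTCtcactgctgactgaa
Lgals9: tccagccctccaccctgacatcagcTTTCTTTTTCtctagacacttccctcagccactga
These letters occurred in 2.98% of 32851 promoters of 27025 genes, in 15 of 37 promoters (40.5%) of the 29 interferon-list genes with an entry, and in 8 of 242 promoters (3.31%) of the lower genes. They also occurred in 8 of 144 promoters (5.56%) of higher genes on chromosome 6 and in 0 of 95 of higher genes elsewhere. The list was drawn up as interferon response genes, and 30 of its 34 measured genes did not pass. Its share therefore describes the list and not the difference between the lines. The cAMP response element, TGACGTCA, which reads the same on both strands, occurred in 1.55% of all promoters and in 8 of the 242 promoters of lower genes (3.31%). It occurred in 3 of 144 promoters (2.08%) of higher genes on chromosome 6 and in 0 of 95 of higher genes elsewhere. A match describes letters in this window and is no sign that a factor binds there.

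Of 43 measured T-lineage identity genes, 1 was higher and 5 were lower, where 1.74% and 1.73% of all genes were, and the median was -0.03. Of the 43, 32 had a WT mean at or above the median level, and each direction took 3.06% of genes at that level. Over the 8 omissions 2 to 4 were lower. Cd2, an adhesion receptor, read 7.21, 7.02, 6.85 and 7.03 in WT and 9.01, 9.34, 8.97 and 8.80 in Kin-, with no overlap and a rise of 2.00 (SE 0.26, adjusted p = 9.94e-05). Zap70, the kinase that couples the T-cell receptor to its targets, read 10.80 to 10.96 in WT and 10.25 to 10.44 in Kin-, and fell by 0.54 (SE 0.07, adjusted p = 1e-04). The costimulatory receptor Cd28 fell by 1.39 (SE 0.31), the receptor zeta chain Cd247 by 0.82 (SE 0.21), the transcription factor Ets1 by 0.48 (SE 0.12) and the E protein Tcf12 by 0.31 (SE 0.06). Ets1 overlapped between the lines. Cd28 lost its call without Kin- array 14 (-1.22), Ets1 without WT array 16 or 36 or Kin- array 5 or 14 (-0.58 to -0.39 over the 8 omissions) and Cd247 in every omission but that of Kin- array 5 (-1.01 to -0.72). Genes of antigen receptor assembly had no call. Rag1, a subunit of the recombinase, differed by -0.31 (SE 0.19, adjusted p = 0.635), with all 4 Kin- arrays below WT, and Ptcra, the pre-TCR alpha chain, by 0.41 (SE 0.48). Cd4, on chromosome 6, differed by 0.10 (SE 0.10).

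Among 28 activation, cytotoxic and checkpoint genes, 2 were lower and 0 higher, where 1.73% and 1.74% of all genes were. Gzma, the serine protease granzyme A, read 14.08, 13.92, 14.45 and 14.30 in WT and 13.22, 13.30, 13.27 and 13.18 in Kin-, and fell by 0.94 (SE 0.13, adjusted p = 0.000143). Ctla4, the inhibitory receptor that competes with CD28, fell by 1.5 (SE 0.33, adjusted p = 0.0113). Of the 20 listed Ly6 and other surface antigens, 2 were lower and 0 higher, beside the same shares of all genes. They were Slamf6, which fell by 2.48 (SE 0.36), and Cd84, which fell by 0.59 (SE 0.15), both SLAM-family receptors; their relatives Slamf1, Slamf7, Ly9 and Cd48 did not pass. Cd84 kept its call in 3 of the 8 omissions (WT 1 or 36, or Kin- 5; -0.65 to -0.51). Itga6, the laminin receptor subunit, fell by 0.33 (SE 0.09), with overlapping arrays, and its call was lost without WT array 13 or 16 or Kin- array 14 or 44 (-0.39 to -0.28). None of 21 MHC and antigen presentation genes passed in the limma test. At an unadjusted p of 0.05, which called 11.5% of all probe sets, 4 of the 21 passed. Of the 21, 13 had a WT mean at or above the median level. On chromosomes other than 6, 1126 of 6378 genes at that level were called at this p. With the array-set term 2 were lower, in a fit that called 3.41% of all genes lower. Psmb8, an immunoproteasome subunit, passed as lower in that fit and without Kin- array 5 (-0.55).

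The largest rises were all outside chromosome 6. Pck2, the mitochondrial enzyme that makes phosphoenolpyruvate, read 5.54, 5.02, 5.19 and 5.54 in WT and 8.52, 10.09, 10.45 and 10.78 in Kin-, a rise of 4.64 (SE 0.56, adjusted p = 3.68e-05) with no overlap. Kin- array 5 was the lowest of its line. Cyp2c23, an arachidonate epoxygenase, rose by 4.19 (SE 0.58), Glrp1 by 4.15 (SE 0.61), Pdgfrb, a growth factor receptor, by 3.12 (SE 0.56), Gm9222, named only by a gene model number, by 2.97 (SE 0.41), and Tfpi, an inhibitor of coagulation, by 2.95 (SE 0.48). The arrays of the lines did not overlap for any of these genes either, which their choice again required.

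Inpp5d and Plekha1 belong to phosphoinositide signalling. Inpp5d, the lipid phosphatase SHIP1, which turns PI(3,4,5)P3 into PI(3,4)P2, read 7.31, 6.53, 6.85 and 6.78 in WT and 9.12, 9.30, 9.47 and 9.69 in Kin-, a rise of 2.53 (SE 0.16, adjusted p = 8.22e-09). Plekha1, an adaptor that binds PI(3,4)P2, rose by 2.85 (SE 0.62, adjusted p = 0.0117), with 5.03 and 4.52 in Kin- arrays 5 and 14 and 7.86 and 7.61 in arrays 40 and 44. Its call was lost without array 40 (2.31) or 44 (2.40). Further rises were those of Cox6a2, the muscle form of a cytochrome oxidase subunit (2.83, SE 0.55), Oaf (1.99, SE 0.21), Ddhd2, a phospholipase (1.83, SE 0.22), and Mpzl2, an adhesion protein of thymic epithelium and thymocytes (2.21, SE 0.58). Mpzl2 kept its call only without Kin- array 5, which read 8.01 beside 10.10 to 11.14 on the other Kin- arrays (1.78 to 2.82 over the 8 omissions).

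Genes of the amino acid response and tRNA synthetases were the listed group with the most higher calls. The pathway is run by ATF4, a transcription factor made when amino acids are short or the endoplasmic reticulum is stressed, and its targets make, import and charge amino acids. Of 35 measured genes, 7 were higher and 0 lower, and the median difference was 0.44 beside -0.01 over all genes. On chromosomes other than 6, 4 of 32 were higher and the median was 0.42. The background there is 0.696% of all genes and 1.13% of genes at or above the median level. Of the 35 genes, 31 had a WT mean at or above that level. With an array-set term 14 of the 35 were higher and 0 lower, and that fit called 3.37% of all genes higher and 3.41% lower. Over the 8 omissions the count was 3 to 9, the lowest without WT array 13 and the highest without Kin- array 5. For 18 of the 35 genes all 4 Kin- arrays lay above all 4 WT arrays, where 3.87% of all genes did. The median was 0.44 within each array set.

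**Figure D5:**
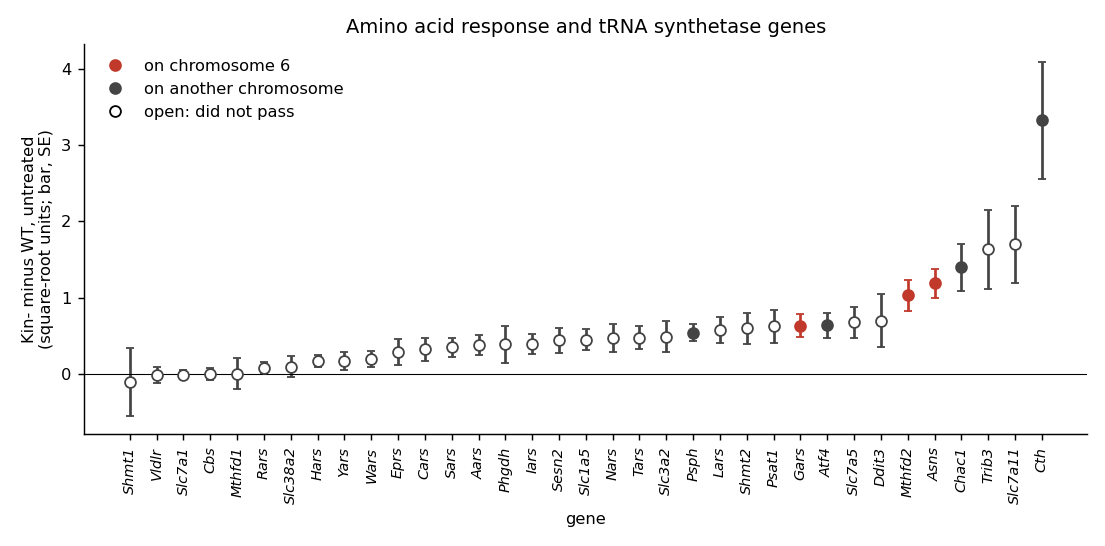
Difference between untreated Kin- and untreated WT in square-root units, with its SE from the limma fit, for 35 amino acid response and tRNA synthetase genes ordered by size. Filled points passed (red on chromosome 6, dark grey elsewhere) and open points did not; all but 4 of the points lie above 0.

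Cth, the enzyme that makes cysteine from cystathionine, had the largest difference of the list. It read 5.63, 4.82, 8.14 and 8.78 in WT and 9.57, 9.74, 10.54 and 10.84 in Kin-, a rise of 3.33 (SE 0.77, adjusted p = 0.0168). The lines did not overlap, and WT arrays 16 and 36 stood closer to Kin- than WT arrays 1 and 13. Atf4 itself read 12.56, 12.72, 12.64 and 12.90 in WT and 13.09, 13.20, 13.56 and 13.50 in Kin-, a rise of 0.63 (SE 0.16, adjusted p = 0.0314). Chac1, which degrades glutathione, rose by 1.40 (SE 0.31, adjusted p = 0.0126), and Psph, the last enzyme of serine synthesis, by 0.54 (SE 0.11, adjusted p = 0.00713). Single omissions ended the calls of Cth (WT 1 or 13, Kin- 40 or 44; 2.65 to 3.98 over the 8), Atf4 (WT 1, 13 or 16, Kin- 40 or 44; 0.56 to 0.72) and Chac1 (WT 13, Kin- 40 or 44; 1.26 to 1.65).

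The 3 members on chromosome 6 also rose. Asns, asparagine synthetase, read 12.70, 12.78, 12.90 and 13.28 in WT and 13.90, 14.11, 14.24 and 14.14 in Kin-, a rise of 1.19 (SE 0.19, adjusted p = 0.000817). Mthfd2, a mitochondrial folate enzyme, rose by 1.03 (SE 0.20, adjusted p = 0.00542), and Gars, glycyl-tRNA synthetase, by 0.63 (SE 0.15, adjusted p = 0.0184). How much of their rise goes with the chromosome-wide median of 0.43 and how much with the list was not tested. The Gars call was lost without WT array 1 or 13 or Kin- array 40 or 44 (0.56 to 0.70). Slc7a11, the cystine importer, differed by 1.70 (SE 0.50, adjusted p = 0.0778) with no overlap, and Trib3, a pseudokinase target of ATF4, by 1.64 (SE 0.52, adjusted p = 0.108) with overlap. Slc7a11 passed without Kin- array 5 (1.94) and Trib3 without WT array 36 (2.08), and both passed with the array-set term. Nupr1, a stress-induced nuclear protein outside the list, read 6.47, 6.07, 6.88 and 7.04 in WT and 9.26, 9.31, 9.68 and 9.73 in Kin-, a rise of 2.88 (SE 0.24, adjusted p = 3.23e-07).

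Promoter windows are shown for 5 genes that rose, 3 of the list with Pck2 and Nupr1, and that carry a C/EBP-ATF composite element, the kind of site through which ATF4 is known to act. It was searched as TGATGNAA on both strands (TTNCATCA on the other) in the same 250 bases, and capitals mark the match. The windows are Pck2 at chr14:55540137-55540196 (+ strand, match 103 bases before the start), Nupr1 at chr7:126625547-126625606 (- strand, 110 bases), Chac1 at chr2:119351023-119351082 (+ strand, 193 bases), Asns at chr6:7693210-7693269 (- strand, 23 bases) and Gars at chr6:55037941-55038000 (+ strand, 30 bases), all from RefSeq in GRCm38.p6.
Pck2: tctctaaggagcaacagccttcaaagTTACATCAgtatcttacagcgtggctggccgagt
Nupr1: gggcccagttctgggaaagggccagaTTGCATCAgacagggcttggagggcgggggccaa
Chac1: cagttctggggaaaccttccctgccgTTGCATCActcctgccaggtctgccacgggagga
Asns: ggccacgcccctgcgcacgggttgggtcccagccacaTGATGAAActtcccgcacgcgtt
Gars: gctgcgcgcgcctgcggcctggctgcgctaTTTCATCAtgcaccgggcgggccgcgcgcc
The letters occurred in 3.45% of all promoters, in 7 of 29 promoters (24.1%) of the 26 list genes with an entry, and in 4 of 95 promoters (4.21%) of higher genes outside chromosome 6. They also occurred in 4 of 144 promoters (2.78%) of higher genes on chromosome 6 and in 7 of 242 (2.89%) of lower genes. The list was drawn up as amino acid response genes, and 28 of its 35 measured genes did not pass. Its share therefore describes the list and not the difference between the lines.

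Among other metabolic lists, cholesterol synthesis and uptake genes had a median difference of 0.36, with 0 of 21 passed in the limma test. At an unadjusted p of 0.05, which called 11.5% of all probe sets, 3 of the 21 passed. All 21 had a WT mean at or above the median level. On chromosomes other than 6, 1126 of 6378 genes at that level were called at this p. With an array-set term 4 of the 21 were higher, in a fit that called 3.37% of all genes higher. Without Kin- array 5 Stard4, a sterol carrier, passed (0.86). Lss, which forms lanosterol, differed by 0.99 (SE 0.34, adjusted p = 0.159), with overlapping arrays, and was higher with the array-set term. Glycolysis genes had a median of 0.24 over 20 genes, but the first array set had -0.05 and the second 0.55. Oxidative phosphorylation genes had a median of -0.11 over 53 genes, -0.12 in each array set. Of these 53, 4 were lower, where 3.06% of genes at or above the median level were. The 4 fell by little: Atp5h by 0.25, Ndufa8 by 0.21, Cox6c by 0.20 and Ndufa10 by 0.18. Single omissions ended the calls of Atp5h (WT 13, 16 or 36, Kin- 40 or 44; -0.28 to -0.18 over the 8), Ndufa8 (Kin- 14 or 40; -0.23 to -0.18), Ndufa10 (WT 1, 13 or 16, Kin- 14, 40 or 44; -0.21 to -0.16) and Cox6c (each of the 8; -0.22 to -0.18).

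Cell cycle lists had almost no calls. None of 51 mitosis genes and none of 19 G1 cyclin, CDK, Rb and E2F genes passed in the limma test, and of 47 DNA replication genes only Rpa3 did. None of 33 genes listed as cytosolic ribosomal proteins passed, nor any of 22 ER chaperone and unfolded protein response genes. The 33 include Mrpl23, a mitochondrial ribosomal protein gene. At an unadjusted p of 0.05 the counts were 5 of 51, 2 of 19, 8 of 47, 2 of 33 and 2 of 22. The same threshold called 11.5% of all probe sets. Most genes of these lists lie at or above the median level, where it called 1126 of 6378 genes on chromosomes other than 6. With the array-set term 2 mitosis and 2 ER genes were higher, and 1 G1 gene and 1 ribosomal protein gene were lower. That fit called 3.37% of all genes higher and 3.41% lower. Without Kin- array 5 the mitotic checkpoint gene Mad2l1, on chromosome 6, passed (0.56). Cdkn1b, a CDK inhibitor on chromosome 6, differed by 0.78 (SE 0.33, adjusted p = 0.324) but passed with the array-set term, Ccnd3 by 0.28 (SE 0.13, adjusted p = 0.395) and Myc by -0.21 (SE 0.29). In the Myc network Mxd4, an antagonist of Myc, fell by 1.16 (SE 0.15, adjusted p = 8.77e-05), from 8.66 to 9.05 in WT to 7.44 to 7.95 in Kin-.

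Of 17 caspase and death receptor genes 1 was higher and 2 were lower, and of 15 genes of the glucocorticoid receptor and its targets 2 were higher and 1 was lower, where 1.74% and 1.73% of all genes were. Each direction took 3.06% of genes at or above the median level. Bcl2l11, which encodes BIM, differed by -0.11 (SE 0.17). Pdcd4, a translation inhibitor, read 9.91 to 9.96 in WT and 9.03, 9.12, 9.60 and 9.08 in Kin-, and fell by 0.73 (SE 0.13, adjusted p = 0.00287). Casp8, the death receptor caspase, fell by 0.53 (SE 0.14) and kept the call only without Kin- array 44 (-0.66 to -0.42 over the 8 omissions). Nr3c1, the glucocorticoid receptor, read 11.19, 11.28, 11.24 and 11.35 in WT and 10.51, 10.35, 10.82 and 10.80 in Kin-, and fell by 0.65 (SE 0.14, adjusted p = 0.0111) with no overlap, and did not pass without Kin- array 14 (-0.56). Tsc22d3, a target of that receptor known as GILZ, rose by 1.04 (SE 0.22, adjusted p = 0.01). Trp53inp1, a p53 target, fell by 1.05 (SE 0.20), Wif1, a secreted Wnt inhibitor, fell by 2.13 (SE 0.32), and Lmna, the A-type lamin, fell by 1.65 (SE 0.27). Smaller calls in the cytoskeleton and redox lists were Tubb2a (-0.52), Coro1a (-0.28), Gstp1 (-0.34) and Anxa2 (1.00), of which the last 3 were each lost in 7 of the 8 omissions and kept only without WT array 1, WT array 36 and Kin- array 5, in that order (-0.33 to -0.23, -0.39 to -0.28 and 0.79 to 1.24).

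Several genes with a basal difference are also genes that the analog changed in WT cells, and the values are set side by side without a test, since both comparisons share the untreated WT arrays. Differences at 2, 6 and 24 h with the analog in WT were 3.33, 3.39 and 3.54 for Irf8 and 3.99, 4.78 and 4.89 for Cd53, whose basal differences were -2.69 and -2.64. They were 3.61, 5.87 and 5.01 for Wif1 (basal -2.13), 3.80, 4.74 and 4.05 for Lmna (basal -1.65), and 2.98, 4.18 and 4.79 for Ctla4 (basal -1.5). Each of these WT differences passed. Hes1, lower in Kin-, had 1.53, 1.12 and 1.32, and Cd2, higher in Kin-, had -1.64, -2.09 and -1.36. Tsc22d3 was higher in Kin- and also after the analog in WT, by 2.27, 1.53 and 0.77. Other genes also had the same sign in both where they passed. Ccr9 (basal -4.66) had -1.58, -1.95 and 0.56, of which the first 2 passed. Itga6 (basal -0.33) had -0.64, -0.73 and -0.55, which all passed. Pdgfrb (basal 3.12) had 0.70, 2.97 and 1.08, and only 2.97 passed. Gm9222 (basal 2.97) had 0.80, 1.27 and 2.83, of which the last 2 passed. Inpp5d (basal 2.53) had 0.11, 0.07 and 1.11, and only 1.11 passed. Matching and opposite signs were not counted over all genes. Pck2 and Cyp2c23, 2 of the largest basal rises, had WT differences of -0.26 to -0.11 and 0.09 to 0.28, none of which passed. For Cth the WT differences were 0.30, -1.33 and -3.30, and only the last passed (adjusted p = 0.0035). Sgip1, Crem and Il10, which the analog changed strongly in WT (6.86 to 8.54, 5.55 to 6.07 and -4.66 to -2.62), had basal differences of -0.36, 0.02 and 0.21 that did not pass.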

How the data were processed

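The series measured total RNA on oligonucleotide arrays. The values the authors deposited are a processed score per probe set (0.375 to 267). How they were processed, and on which scale, was not given in the sources used here. Their square root was taken as log2-like, which is an assumption. The members and gene lists were chosen with earlier results of these data known.

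All 26 arrays were fitted with limma 3.58.1 in R 4.3.3 (lmFit, eBayes), 1 mean per line and time, 18 residual degrees of freedom, and p-values were adjusted by Benjamini-Hochberg over 22626 probe sets at 0.05. Scripts ran in Python 3.11.15, and the fit was tested on simulated data. Of the probe sets, 20380 had 1 gene symbol, 691 several and 1555 none on the platform annotation; 20351 matched the RefSeq gene table by gene ID. Each gene was read from the brightest of its probe sets. Listed symbols were also matched through synonyms. Mrpl23 was thus counted under cytosolic ribosomal proteins, Pigq under glycolysis and Tbc1d1 under ribosome biogenesis, and none of them passed. Of 4956 genes with more than 1 probe set, 92 had more than 1 that passed, and 0 of these had signs that differed. Probe sets that did not pass were not compared. The arrays' number limits the precision.

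Named genes were the 15 largest rises and 15 largest falls among genes that passed, did not overlap between lines and reached the median level in the higher line, members of 45 lists (923 genes) that passed (up to 6 per list), all PKA subunits and inhibitors, 13 anchor genes, and runs of neighbouring genes. Chromosome 6 genes with the largest rises and falls, list members that did not pass (such as Gnas, Notch1, Dtx1, Cd4, Lss, Hk2, Slc7a11 and Trib3) and Krt18 were named after their values were seen. Alternatives were other powers of the values, log2, quantile normalization, a term for the array set, array sets alone, the untreated arrays alone, array weights, a dim-probe filter and each array left out.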

Additional observations from a re-analysis of the deposited data

Results flagged for a closer look

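In 244 groups of 4 untreated arrays (named genes and the chromosome 6 measure, per line), the highest or lowest array was compared with the others by Dixon's ratio of its gap to the whole range, at the 95% critical value. Chance passes about 1 group in 20. In 6 groups 1 array stood apart, fewer than that rate would give, 4 of them in Kin- and 2 of them through Kin- array 5. The chromosome 6 measure of untreated Kin- was 0.098 on array 5 and 0.247 to 0.276 on the other 3. Eif2ak3 read 8.21 on Kin- array 5 and 8.82 to 8.84 on the others. Pdcd4 read 9.60 on Kin- array 40 and 9.03 to 9.12 on the others, and its neighbour Bbip1 read 8.13 on Kin- array 44 and 8.71 to 8.75 on the others. In WT, Btg1 read 10.03 on array 13 and 10.44 to 10.49 on the others, and Ddhd2 read 6.20 on array 1 and 6.94 to 7.07 on the others.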

How the results depend on the processing

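Beside 680 passed probe sets (358 higher, 322 lower, 180 by at least 1 unit), the array-set term gave 1354 (711, 643), arrays 16 to 47 alone 1249 (680, 569, 301), array weights 1685 (874, 811, 284), all 13 Kin- arrays as 1 group 1489 (768, 721), and the 8 untreated arrays alone 410 (228, 182, 111). Arrays 1 to 14 alone, with 2 residual degrees of freedom, gave 0 in limma, 0 in each direction, and 3355 at an unadjusted p of 0.05. Of the alternatives chosen after seeing the data, the 8 untreated arrays with the array-set term gave 1094 (592, 502), and the array-set term without Kin- array 5 gave 1452 (795, 657). Without each untreated array in turn the counts were 450 to 810 (229 to 462, 221 to 348, 139 to 225). Leaving out chromosome 6 changed 216 higher genes to 81. The cause of these changes was not tested. The other scales, filters and normalization tried kept the counts within 1.5 times.

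The chromosome 6 median over that of other genes, 0.46, was 0.43 to 0.50 under every alternative on the square-root scale except the one that added dim genes (0.07); it was 2.07 at a power of 0.75, 8.49 untransformed and 0.15 on a log2 scale. All 92 named genes that passed kept their direction under every alternative, and 58 passed without each array in turn. No paired analysis was run, since the labels name no pairs of arrays across the lines.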
